A study of Mus musculus with 18 samples.

Results

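The potassium channel genes of the mouse hippocampus were taken as every probe of the deposited value table whose platform symbol starts with Kcn, with Kcne2, Kcnj8, Kcnk9 and the Kcnip genes left out. This gave 70 probes, 1 per gene, of the 23473 probes on the array, and 6 further Kcn probes were left out by the rule. They were followed across 18 single-colour microarrays of hippocampal RNA. The labels' mouse numbers per group equal the numbers of arrays, but single arrays are not tied to mice, so p-values measure the spread between arrays. The groups were 7 wild-type mice, 7 mice of the genotype AtrxΔE2, which carries an altered allele of Atrx, an X-linked gene for a chromatin remodeller, and 4 AtrxΔE2 mice given 5-aminolevulinic acid (5-ALA), from which cells build haem. It was dosed at 3 mg/kg by mouth every day from postnatal day 30 until day 90. The ages of the untreated mice, a vehicle control and the sexes are not given in the labels used here, and no wild-type mouse received 5-ALA.

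Potassium channels let potassium leave or enter a cell along its electrochemical gradient, and so set the resting potential, end the action potential and limit repetitive firing. Voltage-gated channels open on depolarisation, calcium-activated channels open when calcium rises inside the cell, inward rectifiers pass current best near the resting potential, and 2-pore channels carry a background leak. In the hippocampus they are known for shaping the excitability of pyramidal neurons and interneurons and, in glia, for clearing potassium and holding a negative membrane potential.

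By their identifiers the arrays formed 2 series. There were 3 wild-type and 3 AtrxΔE2 arrays in series A, and 4 wild-type, 4 AtrxΔE2 and all 5-ALA arrays in series B, so each comparison was made within a series. All values below are log2 intensities after background correction and quantile normalization, and a difference is a difference of log2 intensities. A gene was called when limma's moderated test gave an adjusted p under 0.05, with the Benjamini-Hochberg adjustment made over the 22544 probes tested.

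The series differed in more than their number of arrays. In the authors' table, where the median probe of every array is 25, the summed intensity of 9 choroid plexus markers was 45.3 to 135.7 in series A and 24905 to 36028 in series B. The 4 dentate granule cell markers together summed to 22.8 to 24.9 in series A, below the level of 1 median probe, and to 64.0 to 281.8 in series B. Between the wild-type arrays of the series C1ql2 was higher by 2.44 in series B, while Dsp differed by 0.61, Lrrtm4 by 0.19 and Prox1 by 0.03. No listed marker was empty on all arrays of a group. The part of tissue sampling in the results was not tested, and in RNA of whole tissue fewer cells of a type and less RNA per cell cannot be told apart. The probe for the targeted gene Atrx read 6.82 to 7.08 on the wild-type and 6.38 to 6.51 on the AtrxΔE2 arrays of series A. In series B it read 6.36 to 6.61 on the wild-type arrays, 6.05 to 6.31 on 3 AtrxΔE2 arrays with a usable spot, and 6.01 to 6.23 on the 5-ALA arrays. Between the genotypes Atrx was not called, although their arrays did not overlap within either series. For series A its log2 difference of -0.52 had a limma adjusted p of 0.179. The smaller difference of series B, -0.29, had a limma adjusted p of 0.0927. Between 5-ALA and wild type Atrx was called (-0.39, limma adjusted p 0.00847). The position of this probe relative to the altered part of the gene is not given in the sources used here. Blank spots averaged 55.3 to 56.6 intensity units on the wild-type arrays of series B, 59.3 to 61.6 on the AtrxΔE2 arrays and 61.9 to 63.2 on the 5-ALA arrays, so this level moved with the group.

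Of the 70 potassium channel genes, 63 were brighter than the 95th percentile of blank spots on all 18 arrays. A further 4 did so on at least 4 arrays and were tested. These were Kcng3, an electrically silent modifier subunit, on 9 arrays, Kcnh7 of the ERG group on 6, the glial inward rectifier Kcnj10 on 15 and the G-protein-gated inward rectifier Kcnj5 on 4. The inward rectifiers Kcnj6 and Kcnj15 and the modifier Kcnv2 passed on 2 arrays, 0 arrays and 1 array and were not tested. No tested member lacked a value on any array. The tested members included 17 main hippocampal channels chosen for description. The 67 tested members were grouped by gene symbol. They were 13 subunits of the Kv1 to Kv4 families, 7 modifiers and 3 Kcnq subunits (Kcnq1, Kcnq3 and Kcnq5, labelled M-current). A further 7 were of the EAG, ERG and ELK families, and 8, Kcnu1 among them, were labelled calcium- or sodium-activated. The rest were 9 inward rectifiers, 10 2-pore channels, 9 auxiliary subunits and the regulator Kcnrg. A label is the name of a group and not a property of every gene in it.

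Few potassium channel genes were called between the groups, in shares close to those of all tested probes. In series A 0 of 67 members were called between AtrxΔE2 and wild type, against 0.00887% of all tested probes. The test missed the targeted gene Atrx there too, so the absence of calls does not show equal levels. In series B 2 of 67 (2.99%) were called between the genotypes, against 2.41% of all tested probes. Between 5-ALA and untreated AtrxΔE2 mice 3 of 67 (4.48%) were called, against 6.75%, and between 5-ALA and wild type 6 of 67 (8.96%), against 10.4%. Over the 4 comparisons 7 genes were called, and the median difference over the members was between -0.0048 and 0.0047.

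**Figure D1:**
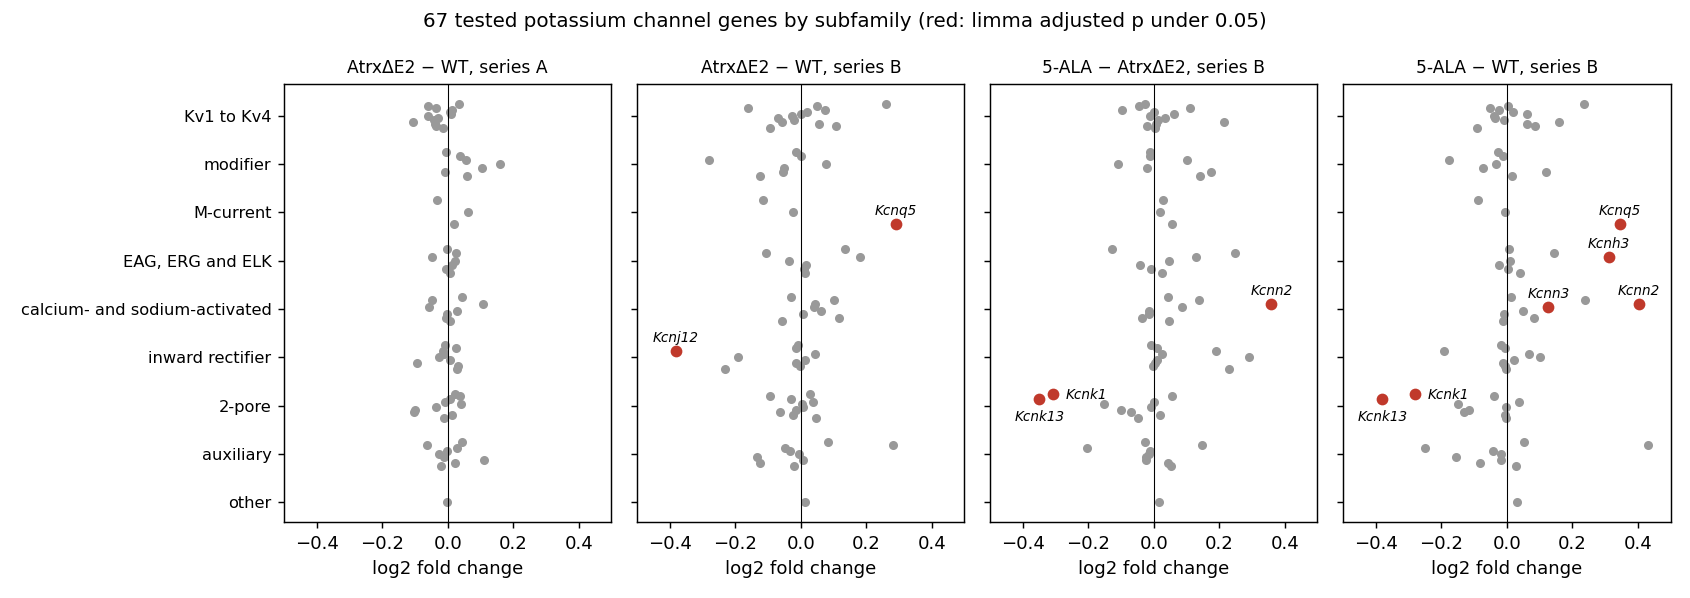
Log2 fold change (horizontal axis) of each of the 67 tested potassium channel genes, 1 point per gene, in rows by subfamily, for the 4 comparisons. Red points with names are the called genes: 0 in series A, then 2, 3 and 6 in series B. Most points lie close to the line at 0.

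The genotype comparison of series B called 1 rise and 1 fall. Kcnq5, which codes for a subunit of the M-current, the slow voltage-gated current that restrains repetitive firing, was higher in AtrxΔE2 mice, and Kcnj12, a strong inward rectifier that holds the resting potential, was lower. Of all tested probes 1.22% were called higher and 1.19% lower in this comparison. Kcnq5 read 7.07, 7.02, 7.03 and 7.04 on the wild-type arrays of series B and 7.19, 7.29, 7.42 and 7.41 on the AtrxΔE2 arrays. Every AtrxΔE2 array lay above every wild-type array, and the wild-type arrays were closely grouped (7.04 ± 0.018 against 7.33 ± 0.11, mean ± SD, n = 4 each). The difference of 0.29 (SE 0.0626), 1.22-fold, had a limma adjusted p of 0.0242. Folds here come from values with an added offset, which makes differences of dim probes smaller. The ratio of the AtrxΔE2 to the wild-type mean in the authors' table was 1.28.

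Kcnj12 read 7.38, 7.49, 7.23 and 7.26 on the wild-type arrays of series B and 6.95, 6.94, 7.04 and 6.90 on the AtrxΔE2 arrays. All AtrxΔE2 arrays lay below all wild-type arrays. Kcnj12 fell by 0.38 (SE 0.0808), 1.30-fold, with a limma adjusted p of 0.0210. The ratio of the AtrxΔE2 to the wild-type mean in the authors' table was 0.631. On the 5-ALA arrays it read 7.33, 7.26, 7.05 and 6.96, which spans the range between both other groups. Its difference from untreated AtrxΔE2 was 0.19 (limma adjusted p 0.176) and from wild type -0.19 (limma adjusted p 0.141), so neither was called.

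Markers of neighbouring tissue, of glia and of neurons differed between the same arrays. Of 9 choroid plexus markers 5 were called higher in AtrxΔE2, and their summed intensity in the authors' table was 24905 to 30375 on wild-type and 30655 to 36028 on AtrxΔE2 arrays of series B. Of 4 thalamus markers 2 were called lower (782.7 to 1099 against 146.1 to 450.2), of 8 astrocyte markers 2 lower (2541 to 2855 against 1934 to 2462) and of 5 striatum markers 1 higher (4078 to 5313 against 6106 to 7011). The sums of these 4 lists did not overlap between the genotypes, nor did those of 7 vessel markers, 1364 to 1474 against 1156 to 1361, of which 0 were called. Among neuronal markers 1 of 5 of CA1 and CA3 pyramidal cells was called lower and 1 of 9 of interneurons higher. Of 4 dentate granule cell markers 0 were called. The part of all these markers in the differences of Kcnq5 and Kcnj12 was not tested.

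Neither difference was seen in series A. There Kcnq5 read 7.70, 7.62 and 7.57 on wild-type arrays and 7.59, 7.85 and 7.51 on AtrxΔE2 arrays, a difference of 0.02 with a 95% interval of -0.14 to 0.17. Kcnj12 read 7.46, 7.64 and 7.41 against 7.39, 7.56 and 7.51, a difference of -0.01 with an interval of -0.21 to 0.18. The groups overlapped for both genes. The genotype difference of series B minus that of series A was 0.27 (SE 0.0956) for Kcnq5 and -0.37 (SE 0.123) for Kcnj12. The limma adjusted p of these differences was 0.407 and 0.389, so the series were not shown to differ. Of the 67 members 0 were called in this test, against 0.102% of all tested probes, and 4 had an unadjusted p under 0.05, namely Kcng4, Kcnj12, Kcnq5 and Kcnj9, against 8.94% of all tested probes.

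The promoter windows of both genes are shown because their transcripts carried the genotype calls. Each window is RefSeq sequence of GRCm38.p6 in the direction of the gene, from 250 bases before to 50 bases after an annotated start, 300 bases in all, and capitals mark every run of at least 3 G or at least 3 C. Such runs are the parts of guanine-quadruplex motifs, a class of sequence at which the Atrx protein is known to bind. Kcnj12 has 1 listed window, chr11:61065554-61065853 on the plus strand, with 4 CG dinucleotides. Kcnq5 has 2 windows on the minus strand, chr1:21962601-21962900 with 3 and chr1:21961893-21962192 with 20 CG dinucleotides.
Kcnj12: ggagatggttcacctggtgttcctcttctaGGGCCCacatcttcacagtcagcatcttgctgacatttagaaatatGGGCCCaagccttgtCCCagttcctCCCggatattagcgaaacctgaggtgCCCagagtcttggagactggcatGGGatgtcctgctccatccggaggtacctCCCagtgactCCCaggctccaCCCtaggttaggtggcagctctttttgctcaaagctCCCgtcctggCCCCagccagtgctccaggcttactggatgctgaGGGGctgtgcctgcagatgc
Kcnq5, first window: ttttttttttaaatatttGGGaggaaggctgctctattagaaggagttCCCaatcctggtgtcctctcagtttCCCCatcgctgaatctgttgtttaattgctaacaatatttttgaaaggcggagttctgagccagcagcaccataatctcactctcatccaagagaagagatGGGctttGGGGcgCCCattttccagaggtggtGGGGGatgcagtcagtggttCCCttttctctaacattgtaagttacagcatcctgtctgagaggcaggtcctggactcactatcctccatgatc
Kcnq5, second window: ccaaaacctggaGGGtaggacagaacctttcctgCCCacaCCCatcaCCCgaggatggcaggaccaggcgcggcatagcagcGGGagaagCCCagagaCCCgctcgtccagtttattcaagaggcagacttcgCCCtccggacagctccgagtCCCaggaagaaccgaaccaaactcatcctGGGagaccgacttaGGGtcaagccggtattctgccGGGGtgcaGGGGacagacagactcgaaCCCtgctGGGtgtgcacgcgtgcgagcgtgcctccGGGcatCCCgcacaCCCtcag

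The motif searched was 4 runs of at least GGG joined by 1 to 7 bases of any kind, on either strand. It was in 18.6% of the 32851 windows of all genes and in 26 of the 72 windows (36.1%) of the 54 members that have one, which covered 24 of these 54 genes. The median number of CG dinucleotides was 9.5 per window in the members and 7 in all genes. The motif was in 0 of the 6 windows of the 5 called members that have one. Kcna2, which codes for an axonal Kv1 subunit and was not called, is shown as an example of a member with the motif, in capitals and here as runs of C, since the motif lies on the other strand. Its window is chr3:107101317-107101616 on the plus strand, with 31 CG dinucleotides.
Kcna2: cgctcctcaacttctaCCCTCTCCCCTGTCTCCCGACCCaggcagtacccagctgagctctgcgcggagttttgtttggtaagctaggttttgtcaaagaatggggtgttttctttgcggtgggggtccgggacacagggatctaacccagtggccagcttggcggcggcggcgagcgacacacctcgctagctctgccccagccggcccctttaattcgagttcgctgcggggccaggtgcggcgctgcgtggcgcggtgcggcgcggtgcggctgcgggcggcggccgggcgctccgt

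**Figure D2:**
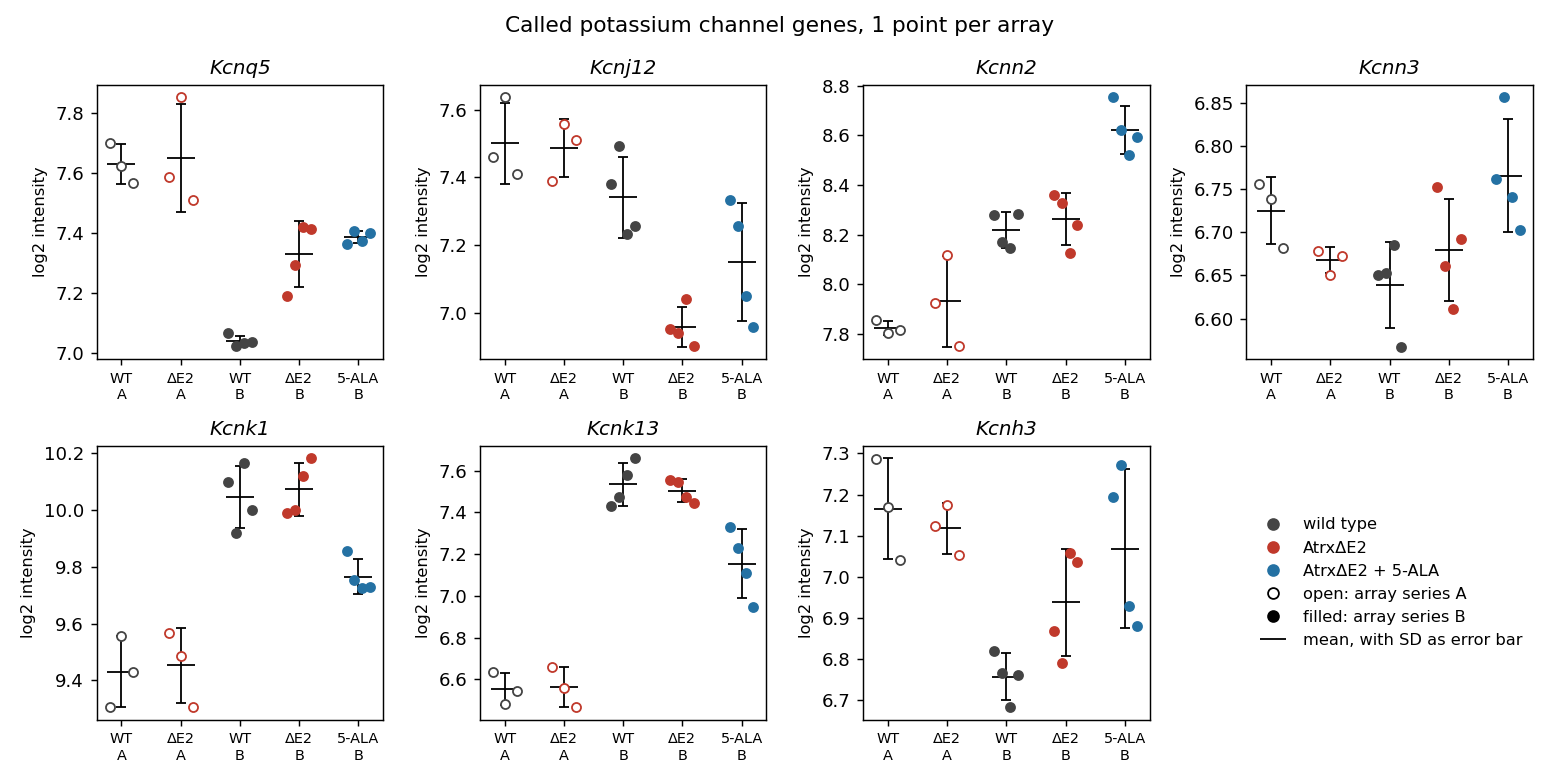
Log2 intensity on every array (points) of the 7 genes called in any comparison, by group and array series, with the group mean and SD as bars and a separate vertical axis for each gene. In series B all AtrxΔE2 arrays lie above wild type for Kcnq5 and below it for Kcnj12, and the 5-ALA arrays lie apart from both other groups for Kcnn2, Kcnk1 and Kcnk13.

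The next largest genotype differences of series B missed the threshold. Kcng4, a modifier subunit that forms channels only together with another subunit, read 6.86, 6.90, 7.00 and 7.14 on wild-type arrays and 6.80, 6.74, 6.67 and 6.56 on AtrxΔE2 arrays. The groups did not overlap, and the difference was -0.28 (SE 0.0723, limma adjusted p 0.0573). Kcnj9, a G-protein-gated inward rectifier subunit of neurons, differed by -0.23 (limma adjusted p 0.139), and Kcnj16, a glial inward rectifier subunit that pairs with Kcnj10, by -0.19 (limma adjusted p 0.276). Kcna3, a Kv1 subunit of axons and of immune cells, differed by -0.16 (limma adjusted p 0.254). On the higher side were the Kv1 auxiliary subunit Kcnab2 (0.28, limma adjusted p 0.577), the axonal Kv1 subunit Kcna1 (0.26, limma adjusted p 0.437), and the EAG and ELK channels Kcnh1 (0.13, limma adjusted p 0.150) and Kcnh3 (0.18, limma adjusted p 0.303). With arrays scaled to their median, limma called 13 of 67 members between these groups, 2 higher and 11 lower. That scaling called 17.5% of all tested probes, 5.7% higher and 11.8% lower. In the main setting 10 members had an unadjusted p under 0.05 in limma's test, 2 higher and 8 lower, against 16.6% of all tested probes, 1954 higher and 1778 lower. The arrays of the 2 genotypes did not overlap for 8 of 67 members (11.9%), and for 12% of all tested probes.

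In series A the largest differences were smaller, between -0.11 and 0.16. The modifier Kcns1 had the largest positive one, 0.16 (SE 0.0990), and the fast Kv3 channel Kcnc4 the largest negative one, -0.11 (SE 0.0921). Kcnmb1, an auxiliary subunit of the large calcium-activated channel, read 6.23, 6.21 and 6.21 on wild-type and 6.40, 6.23 and 6.35 on AtrxΔE2 arrays. Its groups did not quite overlap, with a difference of 0.11, and it was the 1 member with an unadjusted p under 0.05 in limma's test, which called 0, against 3.02% of all tested probes. The other members among the 5 largest rises were Kcnn2 (0.11), Kcns2 (0.10) and Kcnq3 (0.06). The other 4 largest falls were those of Kcnk5 (-0.10), Kcnk4 (-0.10), Kcnj3 (-0.09) and Kcnab2 (-0.06), and none of these was called. Groups did not overlap for 5 of 67 members (7.46%), against 7.47% of all tested probes.

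The genotype differences of the 2 series, which share no array, had the same sign for 34 of 67 members (50.7%) and for 49.6% of all tested probes. Pearson's r over the 67 members was -0.03 and Spearman's rho -0.03. These are descriptions across genes, which are not independent replicates, and the arrays of both series were normalized together.

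**Figure D3:**
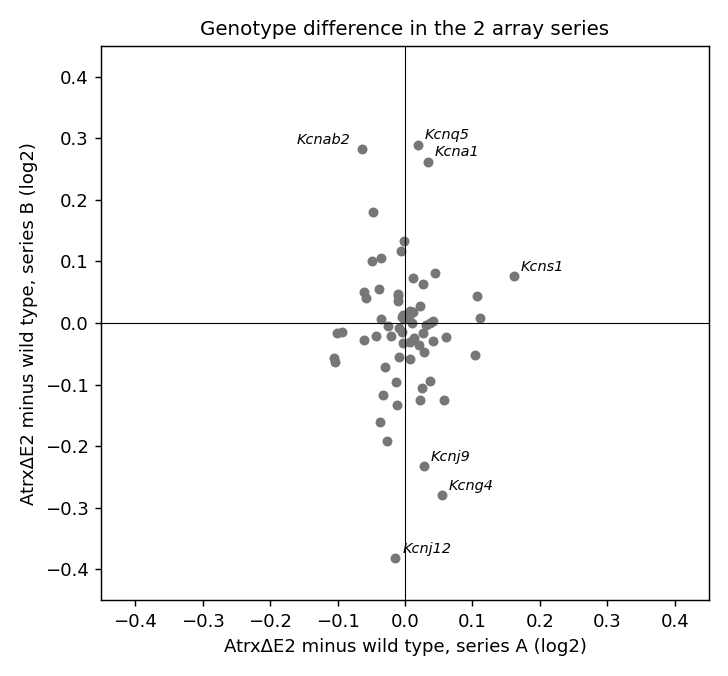
Difference AtrxΔE2 minus wild type in series A (horizontal axis, log2) against the same difference in series B (vertical axis, log2), 1 point per tested potassium channel gene. The spread is wider along the vertical axis, and the genes with the largest differences in series B, among them Kcnj12 and Kcnq5, lie near 0 in series A.

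Treatment with 5-ALA went with 1 called rise and 2 called falls relative to untreated AtrxΔE2 mice. Kcnn2, a small-conductance calcium-activated channel that carries part of the afterhyperpolarisation and acts in dendritic spines of pyramidal cells, was higher. The 2-pore channels Kcnk13, the background potassium channel of microglia in mice, and Kcnk1, a weakly conducting leak channel of neurons and astrocytes, were lower. Of all tested probes 3.49% were called higher and 3.26% lower. Markers of other tissue and cells were also called lower in the treated mice: 3 of 5 of striatum, 5 of 9 of choroid plexus, 2 of 8 of myelin and 2 of 7 of vessels, with 1 vessel marker and 1 of 4 thalamus markers higher. The summed intensity of the striatum markers in the authors' table was 6106 to 7011 on AtrxΔE2 and 3505 to 4144 on 5-ALA arrays, and that of the myelin markers 13408 to 14356 and 9455 to 11597, both without overlap. The choroid plexus sums, 30655 to 36028 and 28488 to 31989, overlapped. The part of these markers in the changes of Kcnn2, Kcnk13 and Kcnk1 was not tested.

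Kcnn2 read 8.75, 8.62, 8.52 and 8.59 on the 5-ALA arrays, against 8.36, 8.33, 8.13 and 8.24 on the AtrxΔE2 arrays and 8.28, 8.17, 8.14 and 8.28 on the wild-type arrays of series B. Every treated array lay above every other array of the series, while both untreated groups overlapped. Against untreated AtrxΔE2 it rose by 0.36 (SE 0.0707), 1.28-fold (ratio of means 1.37 in the authors' table), with a limma adjusted p of 0.00958. Against wild type it was higher by 0.40, 1.32-fold, with a limma adjusted p of 0.00415. Markers of CA1 and CA3 pyramidal cells also moved with the treatment. Against untreated AtrxΔE2 2 of 5 were called higher and 0 lower, and their summed intensity in the authors' table was 153.6 to 232.1 on 5-ALA, 123.6 to 168.0 on AtrxΔE2 and 137.1 to 147.2 on wild-type arrays. Their part in the rise of Kcnn2 was not tested.

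Kcnk13 read 7.33, 7.23, 7.11 and 6.95 on the 5-ALA arrays, against 7.56, 7.55, 7.47 and 7.44 on AtrxΔE2 and 7.43, 7.47, 7.58 and 7.66 on wild-type arrays. All treated arrays lay below all others of the series. Kcnk13 fell by 0.35 (SE 0.0733), 1.27-fold, against untreated AtrxΔE2 (limma adjusted p 0.0133). The ratio of the 5-ALA to the AtrxΔE2 mean in the authors' table was 0.717. Microglial markers moved the same way, with 3 of 8 called lower and 0 higher. Their summed intensity in the authors' table was 1364 to 1445 on 5-ALA arrays, 1667 to 2087 on AtrxΔE2 arrays and 1907 to 2247 on wild-type arrays, with no overlap between treated and untreated mice. Among them Ctss fell by 0.75, C1qa by 0.47 and C1qc by 0.40, whereas Csf1r differed by -0.04 and Tmem119 by 0.09. Whether Kcnk13 moved with the amount of microglial RNA was not tested.

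Kcnk1 read 9.86, 9.75, 9.73 and 9.73 on the 5-ALA arrays, against 9.99, 10.00, 10.12 and 10.18 on AtrxΔE2 and 10.10, 9.92, 10.17 and 10.00 on wild-type arrays. Again the treated arrays lay below all others of the series. Kcnk1 fell by 0.31 (SE 0.0697), 1.24-fold, against untreated AtrxΔE2 (limma adjusted p 0.0193). The ratio of the 5-ALA to the AtrxΔE2 mean in the authors' table was 0.824. Kcnk1 and Kcnk13 were the 2 called of 10 tested 2-pore channels. The other members of that family were not called. The mechanosensitive Kcnk2 differed by -0.15 (95% interval -0.36 to 0.05), and the remaining 7 lay between -0.10 and 0.05.

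The windows of the 2 falling 2-pore genes are shown in the same way, with runs of at least 3 G or C in capitals. They are chr8:125994852-125995151 for Kcnk1 and chr12:99964249-99964548 for Kcnk13, both on the plus strand, with 10 and 9 CG dinucleotides, and neither holds the motif of 4 runs.
Kcnk1: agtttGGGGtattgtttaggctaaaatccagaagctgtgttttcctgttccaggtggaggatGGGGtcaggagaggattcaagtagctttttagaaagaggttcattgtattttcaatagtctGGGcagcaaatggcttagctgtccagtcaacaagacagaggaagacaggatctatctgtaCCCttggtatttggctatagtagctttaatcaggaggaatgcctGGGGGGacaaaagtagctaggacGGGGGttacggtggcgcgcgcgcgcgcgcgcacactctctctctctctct
Kcnk13: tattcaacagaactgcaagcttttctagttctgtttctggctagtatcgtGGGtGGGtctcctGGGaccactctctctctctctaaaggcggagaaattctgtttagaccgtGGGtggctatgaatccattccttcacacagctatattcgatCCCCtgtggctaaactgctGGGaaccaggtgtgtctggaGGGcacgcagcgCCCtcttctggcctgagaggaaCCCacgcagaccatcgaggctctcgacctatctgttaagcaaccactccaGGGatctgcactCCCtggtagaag

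Other differences between treated and untreated AtrxΔE2 mice were not called. Kcnj16 read 7.62, 7.48, 7.72 and 7.63 on 5-ALA arrays and 7.29, 7.17, 7.44 and 7.39 on AtrxΔE2 arrays, without overlap, a difference of 0.29 (SE 0.0849, limma adjusted p 0.0527). Its wild-type arrays, at 7.67, 7.57, 7.38 and 7.43, overlapped both groups. Kcnj9 differed by 0.23 (limma adjusted p 0.0903), the ERG channel Kcnh2 by 0.25 (limma adjusted p 0.176) and Kcnc4 by 0.22 (limma adjusted p 0.119). On the lower side were the Kv1 auxiliary subunit Kcnab3, with -0.20 (limma adjusted p 0.659), and Kcnh1, with -0.13 (limma adjusted p 0.107). In this comparison 11 members had an unadjusted p under 0.05 in limma's test, 8 higher and 3 lower, against 22.3% of all tested probes, 2513 higher and 2520 lower. Groups did not overlap for 7 of 67 (10.4%), and for 11.4% of all tested probes.

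Between 5-ALA-treated AtrxΔE2 and wild-type mice of series B 4 members were called higher and 2 lower. Of all tested probes 5.49% were called higher and 4.87% lower. This comparison shares its treated arrays with the last one and its wild-type arrays with the genotype comparison. Kcnn2 (0.40), Kcnk13 (-0.38, limma adjusted p 0.00658) and Kcnk1 (-0.28, limma adjusted p 0.0226) were called here as well as against untreated mutants. Kcnq5 was called here and between the genotypes: the 5-ALA arrays read 7.36, 7.41, 7.37 and 7.40, all above the wild-type arrays and within the range of the untreated AtrxΔE2 arrays. Its difference from wild type was 0.35 (limma adjusted p 0.00484), and from untreated AtrxΔE2 it was 0.06 with a 95% interval of -0.08 to 0.19.

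Kcnh3 and Kcnn3 were called in no other comparison. Kcnh3, a voltage-gated channel of forebrain neurons that lowers their excitability, read 7.19, 7.27, 6.93 and 6.88 on 5-ALA arrays and 6.82, 6.77, 6.68 and 6.76 on wild-type arrays. It was higher by 0.31 (SE 0.0850, limma adjusted p 0.0329), with the untreated AtrxΔE2 arrays, at 6.87, 6.79, 7.06 and 7.04, overlapping both. Kcnn3, a further small-conductance calcium-activated channel, read 6.76, 6.86, 6.74 and 6.70 against 6.65, 6.65, 6.68 and 6.57, a difference of 0.13 (SE 0.0363, limma adjusted p 0.0394). The groups of Kcnn3 did not overlap, and its difference was the smallest of those called. Kcnn1, the other small-conductance channel of neurons, differed by 0.24 without overlap but was not called (limma adjusted p 0.0792). Of the 8 channels labelled calcium- or sodium-activated 2 were called, and the large-conductance channel Kcnma1 differed by 0.01 with a 95% interval of -0.26 to 0.29. The largest difference was that of Kcnab2, 0.43, which was not called (limma adjusted p 0.235). Its 5-ALA arrays ranged from 8.91 to 10.18. Groups did not overlap for 8 of 67 members (11.9%), against 16% of all tested probes.

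The other main hippocampal channels were not called in any comparison. For the A-type channel Kcnd2, which sets dendritic excitability, the differences were -0.04, 0.11, -0.02 and 0.08 in the order genotype in series A, genotype in series B, 5-ALA against AtrxΔE2 and 5-ALA against wild type. For the M-current subunit Kcnq3 they were 0.06, -0.02, 0.02 and -0.01, with 95% intervals inside 0.2 in either direction. Kcna2 differed by -0.06, 0.05, -0.05 and 0.00, and Kcna4, a Kv1 subunit with fast inactivation, by 0.01, 0.07, -0.10 and -0.02. The Kv3 channel Kcnc1 of fast-spiking interneurons differed by -0.03, -0.07, 0.03 and -0.04. The G-protein-gated subunit Kcnj3 differed by -0.09, -0.02, 0.00 and -0.01. Kcnj10 and Kcnh7 stayed within 0.03 in every comparison, but both probes were dim and did not clear the blank spots on every array. With arrays scaled to their median instead, these 2 were called lower (-0.12 and -0.10, limma adjusted p 0.0380 and 0.0425) and Kcnh1 higher (0.15, limma adjusted p 0.0455) between the genotypes of series B. The 95% intervals lay inside 0.5 in either direction for 65 of 67 members in series A and for 62 in each comparison of series B. A miss of the threshold is therefore a bound on the size and not a sign of equal levels.

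Other ion channel genes were counted in the same order of comparisons. Of all tested probes 0.00887%, 2.41%, 6.75% and 10.4% were called in them. Of 9 sodium channel genes 0 were called in any of the 4 comparisons, with 1, 0, 1 and 3 at an unadjusted p under 0.05 in limma's test. Of all tested probes 3.02%, 16.6% and 22.3% were under it in the first 3 comparisons, and 6117 of 22544 in the last. Of 22 calcium channel genes 0, 1, 1 and 2 (0%, 4.55%, 4.55% and 9.09%) were called, all of them higher. Of 25 tested genes (37 listed) for channel partners and potassium handling 0, 0, 2 and 5 (0%, 0%, 8% and 20%) were called. Against untreated AtrxΔE2 the A-type channel partner Dpp6 rose by 0.27 and the partner Kcnip4 fell by 0.31 in 5-ALA mice, with limma adjusted p of 0.0349 and 0.0359. Against wild type the called partners were Dlg4 (0.22), a synaptic scaffold that binds Kv1 channels, and, on the lower side, Kcnip4 (-0.42), Kcnip1 (-0.30, fitted without 1 array that had no usable spot) and the sodium pump subunits Atp1b3 (-0.25) and Atp1b2 (-0.20), with limma adjusted p from 0.00693 to 0.0328.

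The differences of the potassium channel genes between the array series were larger than those between the groups, as were those of all tested probes. Over the members the median size was 0.18 between the wild-type arrays of the 2 series and 0.03 to 0.05 in the 4 comparisons. Over all tested probes it was 0.11 between the series and 0.03 to 0.06 in the 4 comparisons. Between wild-type arrays of series B and series A 13 of 67 members (19.4%) differed by more than 0.5, 6 higher and 7 lower in series B, against 6.88% of all tested probes. The largest positive difference was that of Kcnk13, 0.98, which read 6.48 to 6.64 on 3 arrays of series A and 7.43 to 7.66 on 4 of series B. The largest negative one was that of the modifier Kcnv1, -0.87, from 8.67 to 8.80 down to 7.80 to 8.02. Kcna1 (0.77), Kcnab2 (0.73), Kcnk1 (0.61), Kcng4 (0.55) and Kcnab1 (0.54) were also higher in series B. Lower there were Kcnmb4, a neuronal auxiliary subunit of the large calcium-activated channel (-0.76), the modifier Kcnf1 (-0.76), Kcnj16 (-0.75), Kcna3 (-0.73), Kcnq5 (-0.59) and the sodium-activated Kcnt2 (-0.54). Of the 7 genes called within series B, 3 are in this group. Scan, tissue sampling and mice cannot be told apart between the series. Myelin markers summed to 3252 to 3710 on wild-type arrays of series A and 12987 to 15778 on those of series B, and their part in these differences was not tested.

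**Figure D4:**
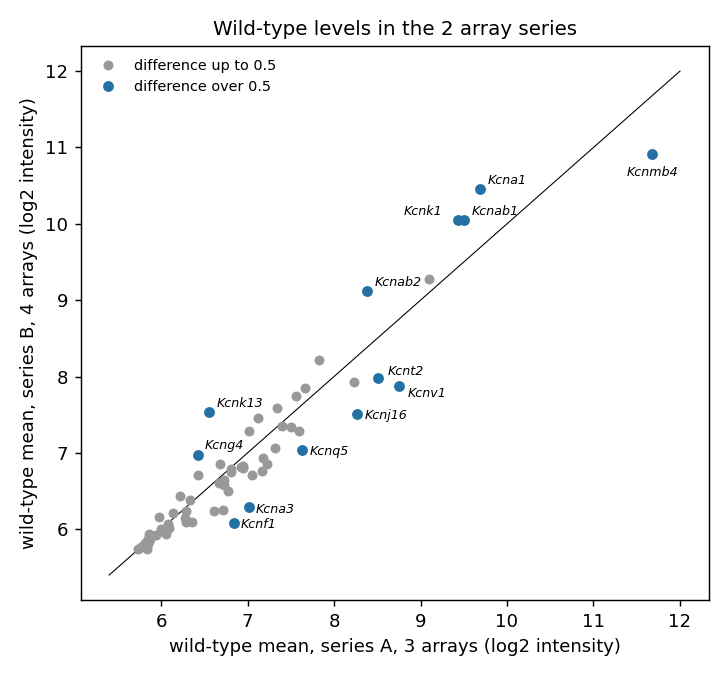
Mean log2 intensity on the 3 wild-type arrays of series A (horizontal axis) against the 4 of series B (vertical axis), 1 point per tested potassium channel gene, with the line of equal level. The 13 named genes in blue differ by more than 0.5, and Kcnk13 lies furthest above the line.

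AtrxΔE2 and 5-ALA arrays with consecutive identifiers were alike within series B. Over the members, deviations from the group mean correlated at 0.48 and 0.65 between consecutive AtrxΔE2 arrays (4 with 5, 6 with 7) and at 0.61 and 0.70 between consecutive 5-ALA arrays (1 with 2, 3 with 4). All other pairs within these groups lay between -0.88 and -0.69, and wild-type consecutive pairs were at -0.17 and 0.24. Deviations from a group mean cancel within the group, so pairs that are alike make the other pairs negative. The negative values are therefore not separate evidence. Over all tested probes consecutive pairs were at 0.19 and 0.25 (AtrxΔE2), 0.43 and 0.45 (5-ALA) and -0.20 and 0.02 (wild type). Kcnv1 is an example, with 7.59 and 7.55 on the first and 8.22 and 8.21 on the second pair of 5-ALA arrays, and the same split is seen above in Kcnj12 and Kcnh3. The labels do not say what the identifiers stand for. When each pair was averaged and counted once, 2 values a group, limma called 0 members in any comparison. The share of all tested probes called with averaged pairs is not given here. A loss in these genes therefore cannot be told from a loss over all probes. The adjusted p was then 0.377 for Kcnj12 and 0.494 for Kcnq5 between the genotypes, and 0.233 for Kcnn2, 0.227 for Kcnk13 and 0.292 for Kcnk1 between 5-ALA and untreated AtrxΔE2. With the pairs kept as a random block (consensus correlation 0.339), Kcnn2 and Kcnk13 were called against untreated AtrxΔE2 (limma adjusted p 0.0451 and 0.0446), and Kcnn2, Kcnk13 and Kcnq5 against wild type, but Kcnk1 (0.0772), Kcnj12 (0.0681) and the genotype difference of Kcnq5 (0.0888) were not.

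Leaving out single arrays of series B separated the calls further. In 8 such refits each, the calls of Kcnn2 and Kcnk13 against both untreated groups, and that of Kcnq5 against wild type, stayed under an adjusted p of 0.05 in limma's test, with a highest value of 0.0381. The genotype call of Kcnj12 was lost without wild-type arrays 4 or 5 or AtrxΔE2 arrays 4, 5 or 7 (limma adjusted p up to 0.0732). That of Kcnq5 was lost without any 1 wild-type array or AtrxΔE2 arrays 5, 6 or 7 (up to 0.0747). The treatment call of Kcnk1 was lost without AtrxΔE2 array 7 or 5-ALA array 2 (up to 0.0573), and its call against wild type without wild-type arrays 4 or 6 or 5-ALA array 2 (up to 0.0666). Kcnh3 was lost without any 1 wild-type array or 5-ALA arrays 1 or 2 (up to 0.107), and Kcnn3 without wild-type arrays 4, 5 or 7 or 5-ALA arrays 1 or 2 (up to 0.125). With the mean blank-spot intensity as a covariate, limma called only Kcnn2 of these 7 genes, against untreated AtrxΔE2 (adjusted p 0.0101), and no member in the other 3 comparisons. The share of all tested probes called with this covariate is not given here. Against wild type the difference of Kcnk13 was then -0.16 in place of -0.38, that of Kcnk1 -0.14 in place of -0.28 and that of Kcnn2 0.72 in place of 0.40. In an additive model of group and series the genotype difference was -0.22 for Kcnj12 and 0.17 for Kcnq5. Directions did not change for any of the called genes under these settings.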

How the data were processed

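Mouse hippocampal RNA was measured on 18 single-colour arrays. Per the file headers, the deposited scanner files hold median spot intensity at 635 nm, combined from 3 gains. A deposited table holds the authors' normalized intensity, linear, with a median of 25 on each array. It ranked probes as the scanner values did (Spearman's rho 0.999973 to 0.999997), and how it was made is not stated in the labels. The main values were scanner intensities corrected with normexp (offset 50, which makes differences of dim probes smaller), averaged over spots of a probe and quantile normalized. Spots marked unusable, at most 11 per array, were left out. A probe was tested if it was above the 95th percentile of blank spots on 4 or more arrays. limma 3.58.1 in R 4.3.3 fitted 1 model to all arrays, with a mean for each of the 5 combinations of group and array series. The fit was also run on simulated data with independent noise on each array, which cannot show the effect of arrays that are alike.

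Platform symbols were updated through RefSeq on GRCm38.p6 (12622 current, 3947 replaced, 62 not found, 6842 probes unnamed), and 0 member symbols needed it. The members, the lists of other genes and the tests were chosen with earlier results of these data known. Named were every called member, the 5 largest rises and falls of each comparison, the main channels and the called partners. The number of arrays limits the precision, as does, for dim probes, a signal close to the blank spots. Alternatives were other background corrections, scalings, filters, priors, models and blocks, the authors' table (log2 after adding 25) and leaving out each array. Averaging pairs without series A and the blank level as a covariate were chosen after seeing the data.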

Additional observations from a re-analysis of the deposited data

Results flagged for a closer look

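Among 99 groups of 4 arrays checked for 33 named genes, 1 held an array far from the other 3. It was Kcnq3 on 5-ALA array 1, at 6.77 against 6.79 on each of the other 3 arrays of the group, which lay so close together that this small gap was 0.9 of the group's range. Chance marks about 1 in 20 such groups.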

How the results depend on the processing

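In series A 0 members were called under every alternative run. The 2 members called between genotypes in series B became 13 (2 higher, 11 lower, against 1 and 1) with arrays scaled to their median, where 17.5% of all tested probes were called, which turned the dim probe of Kcnh7 to -0.10 (adjusted p 0.0425). They became 1 with cyclic loess, and 0 with pairs of consecutive arrays as a random block, with pairs averaged (with or without series A), with the blank level as a covariate and with an additive model of group and series. Leaving out 1 array gave 0 to 1. The 3 members called for 5-ALA against AtrxΔE2 became 0 with averaged pairs (with or without series A) and 1 with the blank level. Leaving out 1 array gave 2 to 4. The 6 called against wild type became 3 with the random block, and 0 with averaged pairs (with or without series A) and with the blank level. Leaving out 1 array gave 3 to 7, with 3 without wild-type array 4 and without 5-ALA array 2. Except for median scaling, the share of all tested probes called is not given here for these settings and refits. Changes in the member counts therefore cannot be told from changes over all probes. Apart from the replicate block below, all other settings stayed within 1.5 times of each count. Single calls were still lost. That of Kcnq5 between genotypes was lost with cyclic loess, the authors' table and the replicate block (limma adjusted p 0.0834, 0.0812 and 0.0825). That of Kcnk1 for treatment was lost with median scaling and the authors' table (0.0831 and 0.0666). Against wild type, refits without 1 array aside, Kcnn3 was lost in 9 of 12 alternatives, Kcnh3 in 7 and Kcnk1 in 5. These include, for Kcnn3 and Kcnh3, series B fitted alone (0.0806 and 0.0605).

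Same-numbered arrays of the genotypes deviated together at r between -0.14 and 0.51, and 1 of 7 correlated best with its own number. With so few arrays this neither shows nor excludes a pairing by number. With the replicate number as a block 1 member was called in series B and 0 in series A, and the share of all tested probes is not given here. 5-ALA and AtrxΔE2 arrays of series B share only number 4, so no paired analysis was possible for the treatment.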
